A study of Homo sapiens with 18 samples.

Results

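The 7 genes described here encode proteins of the sarcomere's thick and thin filaments: MYH6, MYH7, MYBPC3, MYOM1, TNNT2, TPM1 and ACTC1. They were taken by gene symbol, and the peaks of each were those lying on its own strand within its genomic window on the hg19 build. The 7 windows held 336 of the 77088 passing peaks of QKI listed over 9 libraries, and 825 of the 879442 clusters of any strength. A passing peak is a binding cluster at least 4-fold enriched in the immunoprecipitate over the size-matched input (a log2 fold of at least 2) with a p of at most 0.001, both as the authors' lists give them. A cluster is any line of those lists, whatever its fold.

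The sarcomere is the contractile unit of muscle. Myosin thick filaments, tied together at the M-band, pull on actin thin filaments, and tropomyosin with the troponin complex opens and closes the actin sites that myosin binds. In heart muscle several of these genes are known for isoform switches during development, made by exchanging one gene for another (the myosin heavy chains) or one exon for another (tropomyosin, troponin T). QKI binds RNA through a STAR domain, regulates splicing, and is present in developing heart and muscle.

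QKI was mapped in Hues6, an established line of human embryonic stem cells, by eCLIP, in which protein and RNA are crosslinked by ultraviolet light in living cells and the RNA fragments held by QKI are sequenced. Day 0 cells were pluripotent and grown in FTDA medium. The other groups were driven towards cardiomyocytes with CHIR and BMP4 and then with C59. Those of day 4 are labelled cardiac progenitors, and those of day 8 are labelled cardiomyocytes and were crosslinked once beating was seen. Each day had 3 immunoprecipitate libraries, each with an input library, and all come from 1 cell line. Nothing in the labels tells separate cultures from repeat libraries of 1 culture, so every p-value measures the spread between these libraries, which may be technical.

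The libraries differed in size. Passing peaks numbered 12695 to 15508 per library at day 0, 3030 to 7775 at day 4 and 3726 to 10966 at day 8, and clusters of any fold 102085 to 187962, 63319 to 99552 and 52462 to 62897. Peak numbers are therefore also given as a share of their library's passing peaks. The lists hold peaks and no read counts, so read depth is unknown, and more transcript cannot be told apart from more QKI bound per transcript, nor more cells of a type from more RNA per cell. RNA levels were not measured in these lists, so the labelled cell types could not be checked against expression. No cluster lay on the strand opposite to any of the 7 genes in any library.

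QKI peaks on the filament genes fell into 2 unlike sets. TPM1 carried 74.4% of the 336 peaks and was bound in 9 of 9 libraries, pluripotent cells included. The other 6 genes together held 2, 0 and 2 passing peaks in the day 0 libraries, 1, 0 and 2 in the day 4 libraries, and 33, 16 and 30 in the day 8 libraries. Of these day 8 peaks MYOM1 held 39 and ACTC1 20, of which 19 lay in replicate 1. MYH6 held 14, TNNT2 held 6, and MYH7 and MYBPC3 held 0. In clusters of any fold the same 6 genes went from 3, 1 and 2 at day 0 through 26, 12 and 34 at day 4 to 141, 142 and 102 at day 8. Taken over all 7 genes, the share of a library's passing peaks was 0.251%, 0.378% and 0.275% at day 0, 0.429%, 0.270% and 0.600% at day 4, and 0.854%, 1.07% and 0.556% at day 8. Here day 4 overlapped both of its neighbours, while day 8 lay above day 0. Among all 2068 loci, 413 (20%) also had every day 8 share above every day 0 share.

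**Figure D1:**
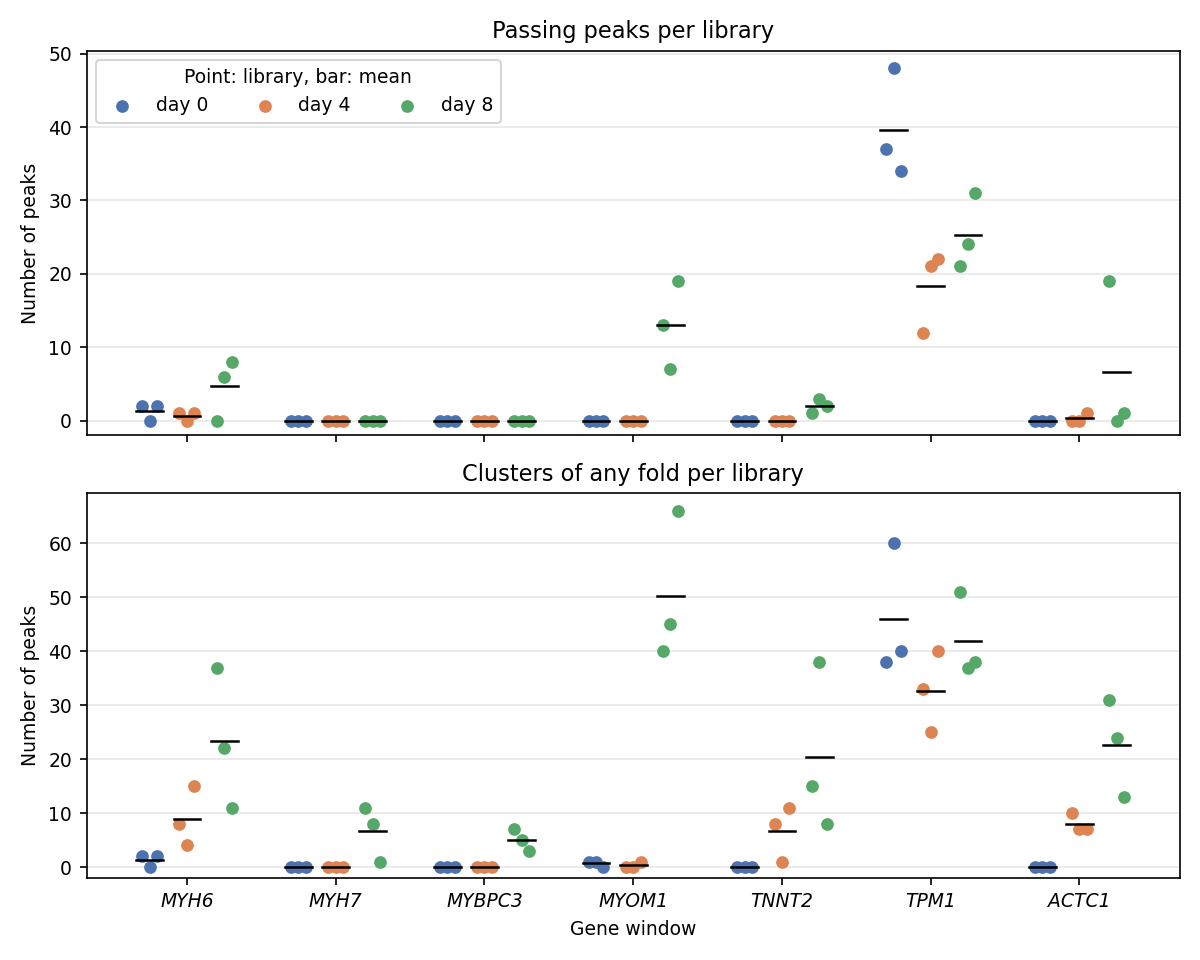
Number of passing peaks (top) and of clusters of any fold (bottom) in each of the 7 gene windows; each point is 1 library, coloured by day, and each bar the mean of 3 libraries. TPM1 is bound at every day (34 to 48 passing peaks at day 0), MYOM1 has passing peaks only in the day 8 libraries (7 to 19), and MYH7 and MYBPC3 have clusters at day 8 but no passing peak.

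MYOM1, which encodes myomesin, the protein that crosslinks thick filaments at the M-band, gained QKI peaks at day 8. None of the 3 day 0 and none of the 3 day 4 libraries had a passing peak in its window of 153302 nt on the minus strand of chromosome 18 (3066805 to 3220106), and the day 8 libraries had 13, 7 and 19. As shares of passing peaks these were 0.206%, 0.188% and 0.173%, or 0.189% ± 0.0162 (SD, n = 3). The 3 shares lay close together although the libraries differed in size. Over summed peaks the share was at least 25.5-fold higher at day 8 than at day 0 (against day 4, at least 9.16-fold), with a group of 0 set to 3 peaks over the group. In limma across 2068 loci the log2 difference was 5.75 ± 0.53 SE against day 0 (adjusted p = 2.1e-08) and 4.16 ± 0.53 against day 4 (adjusted p = 1.67e-05). MYOM1 met the minimum for this test through its day 8 peaks alone, so it had to differ, and the counts themselves are the result. The exact permutation test over the 3 days, two-sided, which borrows no spread from other loci, gave p = 0.0357 (0.110 after adjustment over the 2068 loci, of which 0 reached 0.05). With no passing peak in any day 0 or day 4 library, this was the smallest p that the test could give for MYOM1. It therefore adds nothing to the counts. For day 8 against either earlier day the permutation test gave 0.1, the smallest p that 3 against 3 libraries allow.

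Counted as clusters of any fold, passing peaks included, MYOM1 was also nearly empty before day 8. There were 1, 1 and 0 at day 0, 0, 0 and 1 at day 4, and 40, 45 and 66 at day 8. The 2 day 0 clusters had log2 folds of 2.91 and 2.70 but −log10 p of only 1.14 each, so they did not pass. In the day 8 libraries 12, 16 and 17 clusters reached 4-fold without reaching the p threshold, with a −log10 p of at most 2.69, 2.83 and 2.26 where 3 was required, beside the 13, 7 and 19 that passed.

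The MYOM1 peaks were spread thinly along the transcript. The 39 passing peaks formed 24 separate regions, from 1446 to 152634 nt from the 5′ end of the window. Of these, 16 passed in 1 library, and the 19 peaks of replicate 3 had 13 distinct fold values. In 3 of 3 day 8 libraries 5 regions passed. The strongest (3153329 to 3153444, 66663 nt from the 5′ end) had log2 folds of 5.27, 5.20 and 5.65 and a log2 fold of 5.52 in the authors' merged day 8 list, which keeps peaks reproducible over the 3 libraries. The same place held a weak cluster in 1 of 3 day 0 libraries. Close together further along lay regions at 3130872 to 3130987 (merged log2 fold 4.81) and 3131013 to 3131116 (4.41), and before them 1 at 3137644 to 3137722 (4.32). None of these had a cluster at day 0 or day 4. The fifth region (3159747 to 3159837) had log2 folds of 2.91, 4.36 and 3.89 but was not in the merged list.

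MYH6 encodes the alpha myosin heavy chain, the faster of the cardiac myosin motors. Its passing peaks stood in one place at day 0 and day 4 and in other places at day 8. The libraries held 2, 0 and 2 passing peaks at day 0, 1, 0 and 1 at day 4, and 0, 6 and 8 at day 8. The groups overlapped at every pair of days, since 1 day 8 library had none. The log2 difference of day 8 from day 0 was 2.15 ± 0.89 SE (limma adjusted p = 0.0621), which did not pass. It passed in 12 of 24 alternatives (limma adjusted p from 7.42e-05 to 0.386 over the 24), among them those without day 8 replicate 1 (3.45, 0.00139), day 0 replicate 1 (2.45, 0.0474), day 0 replicate 3 (2.57, 0.0287) or day 4 replicate 1 (2.15, 0.0252). Without day 8 replicate 2 it was 1.21 (0.386) and without day 0 replicate 2 1.43 (0.216). On summed peaks the ratio of shares was 6.87, with an exact counting interval of 2.16 to 28.7 that covers counting error only. The interval takes each peak as independent, yet the 14 day 8 peaks joined into 5 stretches where they overlapped or touched. It is therefore likely too narrow. Counted as such stretches, the log2 difference was 1.46 ± 0.75 SE (limma adjusted p = 0.136). All day 0 and day 4 peaks lay in 1 region of 253 nt (chromosome 14, minus strand, 23872271 to 23872523), 4964 nt from the 5′ end of the window. This region reached a log2 fold of 6.13 in day 0 replicate 1, passed in 2 of 3 libraries at each of these days, and held no cluster of any fold in a day 8 library. The 14 day 8 peaks lay elsewhere, in 2 groups. One group covered 2 abutting regions 396 and 471 nt from the 5′ end (23877017 to 23877091 and 23876958 to 23877016), and the other 4 small regions between 16004 and 16158 nt from it. Each group passed in replicates 2 and 3, and replicate 1 held no cluster of any fold at any of these regions. At day 4, clusters that did not pass lay in 1 of 3 libraries at the regions 396, 471 and 16158 nt from the 5′ end.

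Clusters of any fold at MYH6, passing peaks included, were more numerous already at day 4. They numbered 2, 0 and 2 at day 0, where all of them passed, 8, 4 and 15 at day 4, and 37, 22 and 11 at day 8. Day 8 replicate 1, with no passing peak, had the most clusters of the 9 libraries (37), and its highest log2 fold was 1.73. The replicate with the fewest (11) had the strongest peak of day 8, with a log2 fold of 4.90. The number of clusters and their highest fold thus ran in opposite order among the day 8 replicates. Their median log2 folds, 0.806, 0.507 and 3.87 in replicates 1, 2 and 3, did not follow that order. What differed between these libraries was not tested.

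**Figure D2:**
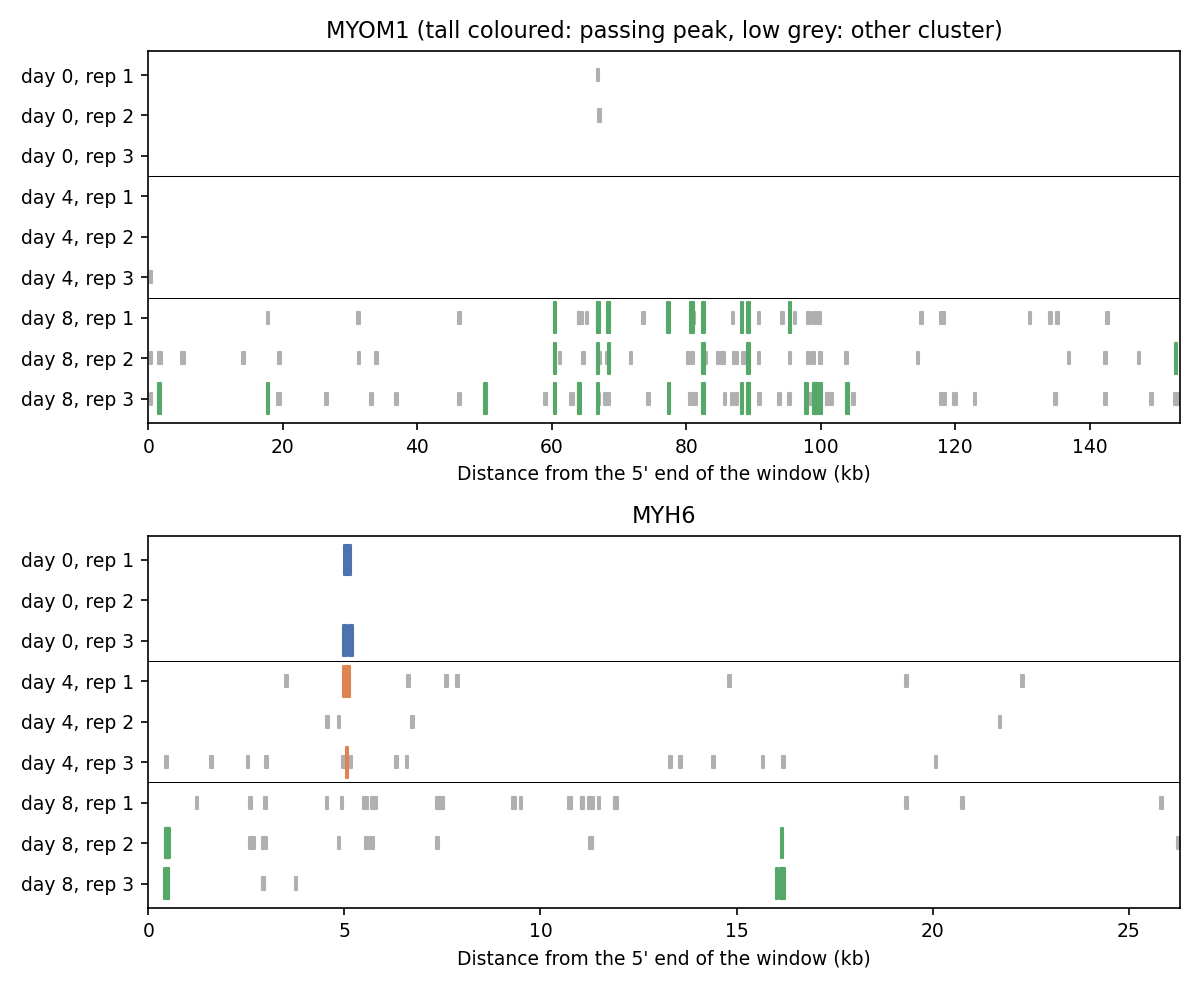
Position of each cluster in the MYOM1 (top) and MYH6 (bottom) windows, as distance in kb from the 5′ end, with 1 row per library; tall coloured bars are passing peaks and low grey bars other clusters, and bar widths are drawn with a minimum so that narrow peaks can be seen. MYOM1 is almost empty before day 8, and the MYH6 peaks of day 0 and day 4 start 4964 nt from the 5′ end, where day 8 has none; those of day 8 start 396 to 471 and 16004 to 16158 nt from it.

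MYH7 and MYBPC3 had no passing peak in any of the 9 libraries. MYH7 encodes the beta myosin heavy chain, the slow ventricular motor, and MYBPC3 the cardiac myosin-binding protein C, which sits on the thick filament and tunes crossbridges. Clusters of MYH7 were absent at day 0 and day 4 and numbered 11, 8 and 1 at day 8. Their log2 folds went up to 3.14, above the 4-fold threshold, but the highest −log10 p was 2.57, just under the 3 required. Clusters of MYBPC3 were likewise absent at day 0 and day 4 and numbered 7, 5 and 3 at day 8. The highest log2 fold there was 2.27, with a −log10 p of 1.04, and no cluster passed on both counts. Both genes thus had clusters at day 8 only, and weak ones. MYH6 and MYH7 are neighbours with long near-identical stretches. How reads that fit both were treated is not given in the sources used here, so the split between them is uncertain.

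TPM1, which encodes alpha-tropomyosin, the coiled coil that lies along actin and blocks myosin sites at rest, was the most heavily bound of the 7 genes. Its 250 passing peaks ranked it 7th of the 2068 loci tested. The day 0 libraries held 37, 48 and 34, the day 4 libraries 12, 21 and 22, and the day 8 libraries 21, 24 and 31. In number the day 0 libraries lay above all others. As shares of passing peaks they no longer did, with 0.239%, 0.378% and 0.260% at day 0, 0.396%, 0.270% and 0.550% at day 4, and 0.332%, 0.644% and 0.283% at day 8, and all 3 days overlapped. The log2 difference from day 0 was 0.47 ± 0.39 SE at both later days (limma adjusted p = 0.378 at day 8 and 0.399 at day 4), and day 8 differed from day 4 by 0.00 ± 0.39 (adjusted p = 0.999). On summed peaks the ratio of day 8 to day 0 was 1.25, with a counting interval of 0.928 to 1.69. No change in TPM1's overall share was detectable here. On simulated data limma recovered 0.116% of 2-fold changes between day 8 and day 0, and 0% at loci of at least 30 peaks. A change of 2-fold or less in TPM1 could therefore have been missed. The simulation changed 200 loci, while the fit to the data called 721 of 2068 between these days. Its recovery rates may therefore not hold for the data. When every library was cut to its 3030 strongest peaks the direction turned, with a log2 difference from day 0 of −0.58 at day 8 (limma adjusted p = 0.0646) and −0.77 at day 4 (0.0324). Over all loci this setting called 124 of 582 between day 4 and day 0, 91 of them lower.

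The TPM1 peaks were packed into the 3′ part of the gene. The window runs over 29284 nt on the plus strand of chromosome 15 (63334831 to 63364114). Of the 250 peaks, 0 lay in the first 18 kb, 20 lay between 18 and 20 kb, 214 between 20 and 24 kb and 16 beyond. The authors' lists cut continuous signal into abutting peaks, and the 250 peaks joined into 113 stretches over the 9 libraries, or 25 regions when laid over each other. In 9 of 9 libraries 4 regions passed. The widest and strongest (63357333 to 63357639, 307 nt, 22503 nt from the 5′ end) had highest log2 folds of 8.80, 8.40 and 8.22 at day 0, 6.45, 8.08 and 7.19 at day 4, and 7.80, 6.58 and 10.19 at day 8. The value of 10.19 was the highest of all 10966 passing peaks of day 8 replicate 3. In the other libraries TPM1's best peak ranked between 43rd and 219th. Upstream of it, 21465 and 21258 nt from the 5′ end, lay regions at 63356295 to 63356544 and 63356088 to 63356276, with highest merged log2 folds of 6.42 and 6.08 at day 0, 5.46 and 4.14 at day 4, and 5.25 and 4.30 at day 8. The remaining one stood apart, 27143 nt from the 5′ end (63361973 to 63362084), at 5.60, 4.52 and 4.79. A fold ranks a peak inside its own list only, so the days are not set against each other by fold.

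**Figure D3:**
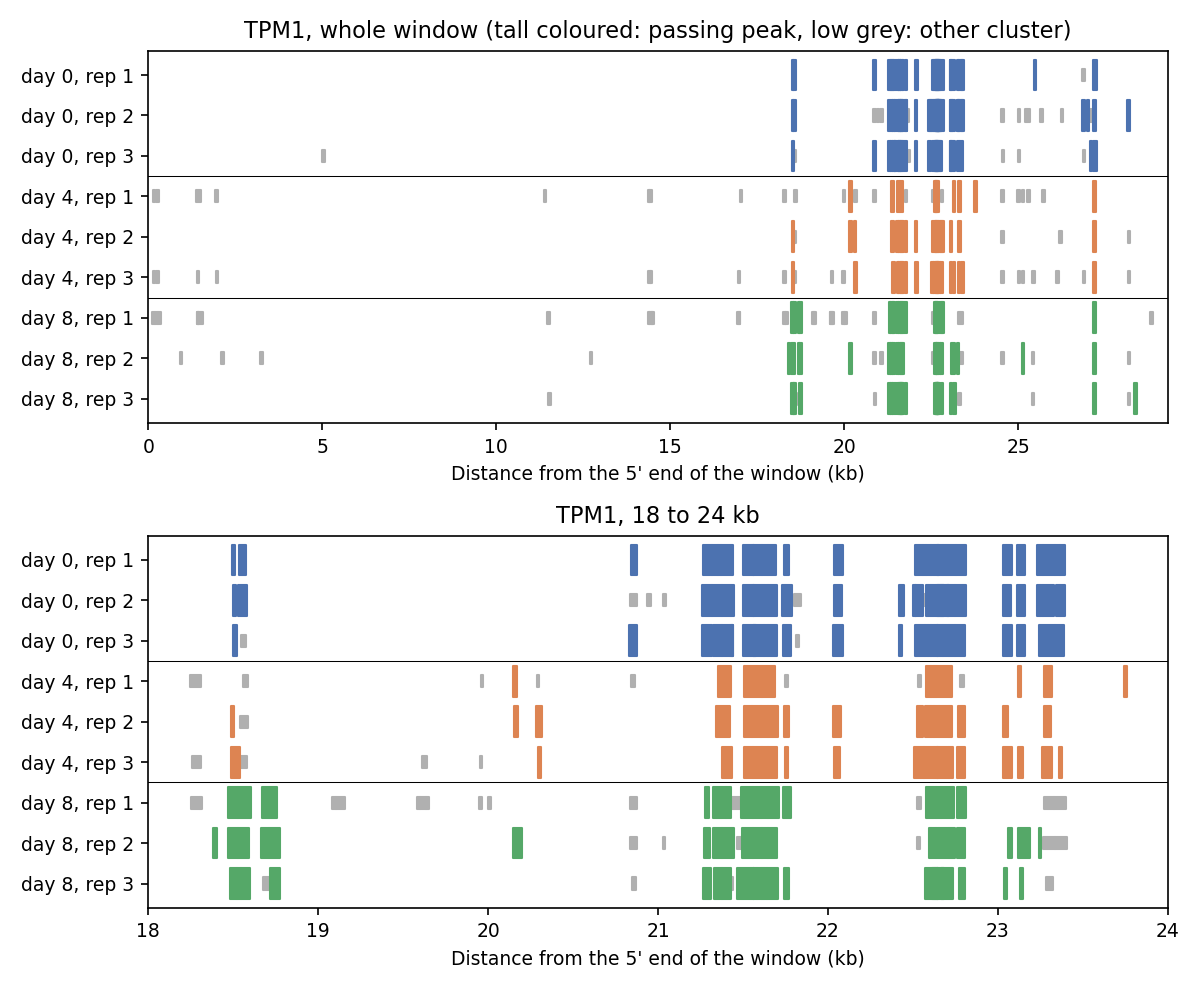
Position of each TPM1 cluster as distance in kb from the 5′ end of the window, over the whole window (top) and from 18 to 24 kb (bottom), with 1 row per library; tall coloured bars are passing peaks and low grey bars other clusters. The group of regions starting 21258 to 22503 nt from the 5′ end has passing peaks in all 9 libraries, and the block starting 18666 nt from it has clusters in the 3 day 8 libraries and in no other.

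Inside and outside this core of regions bound in every library, other TPM1 regions passed in only some libraries. A region downstream of the core (63358063 to 63358224, 23233 nt from the 5′ end) passed in 3 of 3 libraries at day 0 and at day 4, and in 1 of 3 at day 8, where all 3 libraries still held a cluster. The next regions were picked after their values were seen, so they are given with no test. A region of 112 nt (63353496 to 63353607, 18666 nt from the 5′ end) passed in 3 of 3 day 8 libraries, with log2 folds of 3.79, 4.21 and 2.58, and no day 0 or day 4 library held a cluster there. A region of 56 nt within the core (63356862 to 63356917) passed in 3 of 3 day 0 libraries (log2 folds 4.13, 3.44 and 3.34) and in 2 of 3 at day 4, and no day 8 library held a cluster there. The stretch between 18 and 20 kb held 2, 2 and 1 passing peaks at day 0, 0, 1 and 1 at day 4, and 4, 5 and 4 at day 8. These were 5.41%, 4.17% and 2.94% of TPM1's peaks at day 0, 0%, 4.76% and 4.55% at day 4, and 19.0%, 20.8% and 12.9% at day 8. The 3 day 8 values lay above all those of the earlier days, while the gene's overall share overlapped between days. The percentages also depend on how finely the core was cut into peaks. Its widest region held 13, 18 and 11 peaks at day 0 and 7, 6 and 12 at day 8.

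TNNT2 encodes cardiac troponin T, which anchors the troponin complex to tropomyosin. It had no passing peak in any library of day 0 or day 4 and had 1, 3 and 2 at day 8. With 6 peaks in all it fell under the minimum of 10 for the test, so only counts are given here. On summed peaks the day 8 share was at least 3.93-fold that of day 0. One region (chromosome 1, minus strand, 201329381 to 201329478) passed in 3 of 3 day 8 libraries with log2 folds of 3.58, 2.85 and 3.40, and had no cluster at day 0 or day 4. A second (201328887 to 201328965) passed in 2 of 3. They ended 1245 and 751 nt from the 3′ end of the window, so the reproducible TNNT2 peaks lay near the 3′ end of the gene. Clusters of any fold numbered 0 in each day 0 library, 8, 1 and 11 at day 4, and 15, 38 and 8 at day 8. In day 4 replicates 1 and 3, 4 and 6 of the clusters were at least 4-fold enriched, but none reached a −log10 p above 1.56.

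ACTC1 encodes cardiac alpha-actin, the core of the thin filament. Its day 8 peaks came almost wholly from 1 library. No day 0 library had a passing peak, the day 4 libraries had 0, 0 and 1, and the day 8 libraries 19, 0 and 1. The day 8 mean of 6.67 ± 10.7 peaks (SD, n = 3) shows this spread. The 19 peaks of replicate 1 had log2 folds between 2.00 and 2.88, just inside the threshold, while the highest log2 fold in replicate 2 was 1.55, below it. limma gave a log2 difference from day 0 of 3.40 ± 0.87 SE (adjusted p = 0.00442). Without day 8 replicate 1 it was 1.89 (limma adjusted p = 0.102), and with a pseudocount scaled to library size 2.36 (0.220), so the call rests on that library and on the pseudocount. Of the 20 regions that passed in any library, 17 held a cluster of any fold in 3 of 3 day 8 libraries. Many of these clusters were weak, with median log2 folds of 2.12, 0.923 and 0.320 over all ACTC1 clusters of day 8 replicates 1, 2 and 3. Clusters covered 16.2%, 14.2% and 9.93% of the window, and 1 nt of overlap was enough. How much overlap these would give without shared binding was not tested. Clusters of any fold numbered 0 in each day 0 library, 10, 7 and 7 at day 4, and 31, 24 and 13 at day 8.

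**Figure D4:**
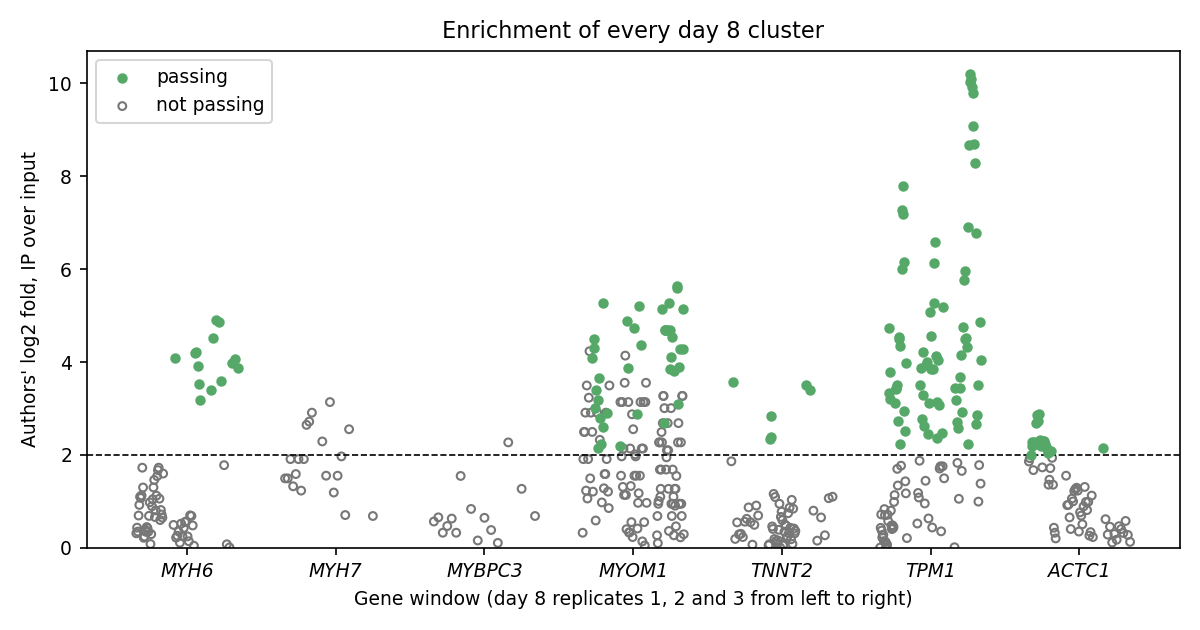
Log2 fold of the immunoprecipitate over input, as the authors' lists give it, for every day 8 cluster of the 7 genes, by replicate from left to right; filled points pass both thresholds and the dashed line marks a log2 fold of 2. The 19 passing ACTC1 peaks of replicate 1 lie just above the line (2.00 to 2.88) and its other 12 clusters below it, all clusters of replicate 2 lie below it (at most 1.55), several MYH7 clusters lie above it without passing on p, and TPM1 reaches 10.19.

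The comparison across days can be read over all loci. Of the 7 genes, 4 had the 10 passing peaks needed for limma (MYH6, MYOM1, TPM1 and ACTC1), while TNNT2 had 6 and MYH7 and MYBPC3 had 0. Between day 8 and day 0, 2 of these 4 passed at an adjusted p of 0.05, MYOM1 and ACTC1, both higher at day 8. Over all 2068 loci 34.9% passed, 15.2% in this direction. Between day 8 and day 4, 1 of 4 passed (MYOM1, higher), against 10.7% of all loci and 5.9% in this direction. Over the 3 days together 2 of 4 passed (adjusted p = 5.89e-08 for MYOM1 and 0.0125 for ACTC1), against 38.4% of all loci. MYOM1 reached the minimum through day 8 alone and ACTC1 nearly so, and such genes had to differ, so the counts of genes called are descriptions. Between day 4 and day 0 limma also called 1 of 4, against 22.4% of all loci and 14.2% in this direction. That call was MYOM1 (log2 difference 1.59, adjusted p = 0.0364), which has 0 passing peaks in all 6 libraries. It came from the fixed pseudocount of 0.5 peaks in libraries of unequal size and is not a change in peaks. With a pseudocount scaled to library size, a choice added after seeing the data, limma called 0 of 4 between these days (20.4% of all loci, 4.59% higher), and 0 of 4 had an unadjusted p under 0.05. That setting called 1 of 4, MYOM1, between day 8 and day 0 (28.3% of all loci, 8.66% higher), between day 8 and day 4 (9.14%, 6.53% higher) and over the 3 days (30.9%). The share of each library's passing peaks was higher in all 3 day 8 libraries than in all 3 day 0 libraries for 1 of 4 genes, MYOM1, against 413 of all 2068 loci (20%). These comparisons share libraries and are not independent of each other.

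Counted as clusters of any fold, where all 7 genes had enough for the test, the share of every filament gene rose between day 0 and day 8. In limma over 9123 loci 7 of 7 passed, against 31.3% of all loci and 13.5% in this direction. The log2 differences were 6.94 ± 0.68 SE for MYOM1, 6.81 ± 0.57 for ACTC1, 6.47 ± 0.77 for TNNT2, 5.23 ± 0.73 for MYH6, 4.76 ± 0.69 for MYH7, 4.76 ± 0.52 for MYBPC3 and 1.25 ± 0.29 for TPM1. The largest adjusted p of the 7 was 0.00423, for TPM1. With the scaled pseudocount 7 of 7 passed as well (30.9% of all loci, 10.7% higher). On summed clusters the day 8 share of ACTC1 was at least 60.3-fold that of day 0, of TNNT2 at least 54.1-fold, of MYH7 at least 17.7-fold and of MYBPC3 at least 13.3-fold. For MYH6 the ratio was 46.6 (counting interval 17.4 to 176) and for MYOM1 201 (54.7 to 1674). TPM1, at 2.43 (1.89 to 3.12), moved least. TPM1's number of clusters overlapped between the days (38, 60 and 40 at day 0, 51, 37 and 38 at day 8), so its rise is one relative to the fewer clusters of the day 8 libraries. MYOM1, MYH7 and MYBPC3 reached the minimum through day 8 alone and so had to differ. ACTC1 and TNNT2, with 0 clusters at day 0, and MYH6, with 4, reached it only through the later days. The count of 7 is therefore a description. Over the 3 days 7 of 7 passed too (36.2% of all loci, or 34.3% with the scaled pseudocount).

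By day 4 some of the genes had gained clusters and others had not. Against day 0, 3 of 7 passed (21.7% of all loci, 8.98% in this direction): ACTC1 with a log2 difference of 5.06 ± 0.57 SE (limma adjusted p = 2.24e-05), TNNT2 with 4.39 ± 0.77 (0.000898) and MYH6 with 3.51 ± 0.73 (0.00288). With the scaled pseudocount 3 of 7 passed (19.0% of all loci, 6.46% higher), and they were the same 3. ACTC1 and TNNT2 had 0 clusters at day 0 and MYH6 had 4. These 3 genes reached the minimum of 10 only through the later days, so their calls also describe the counts. Between day 4 and day 8, 3 of 7 passed (12.9% of all loci, 6.22% in this direction): MYOM1 with 6.48 ± 0.68 (adjusted p = 1.98e-05), MYBPC3 with 3.77 ± 0.52 (0.000205) and MYH7 with 3.77 ± 0.69 (0.00194). With the scaled pseudocount ACTC1 joined them (1.76 ± 0.51, adjusted p = 0.0439), which made 4 of 7 (13.2% of all loci, 5.84% higher). MYH7 and MYBPC3 had 0 clusters in all 6 earlier libraries and MYOM1 had 3 in total, so these genes reached the minimum of 10 through day 8 alone and had to differ; their calls are descriptions of the counts. Whether 2 genes differed from each other in timing was not tested.

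The authors' merged lists, which hold the reproducible peaks of each day, contained 85 peaks of the filament genes. TPM1 had 41 of the 7778 peaks of day 0, 14 of the 947 of day 4 and 24 of the 1576 of day 8, or 0.527%, 1.48% and 1.52% of each list. At day 8 its best peak (log2 fold 8.17) ranked 15th of the list. MYOM1 had 4 peaks and TNNT2 had 2, all at day 8, with highest log2 folds of 5.52 and 3.79. MYH6, MYH7, MYBPC3 and ACTC1 had none at any day. The lists differ in length, so neither counts nor ranks are compared between them.

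Outside the 7 windows, 3 loci had the profile over the 9 libraries most like that of the summed filament genes. Likeness was the mean absolute difference of log2 shares, each centred on its own mean, among 389 loci with at least 30 passing peaks. They lay at chromosome 7 99189197 to 99195833 on the plus strand (mean difference 0.204, 69 peaks), chromosome 2 54863024 to 54896310 on the plus strand (0.213, 96 peaks) and chromosome 17 76994904 to 77005811 on the minus strand (0.216, 111 peaks). The first of them held 11, 8 and 7 peaks at day 0, 2, 3 and 4 at day 4, and 12, 9 and 13 at day 8. They were compared with the summed profile only, not with single genes.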

How the data were processed

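QKI eCLIP was measured in 9 immunoprecipitate libraries, 3 each at day 0, 4 and 8, with 9 inputs (18 samples). The authors' deposited lists give, per cluster, the log2 fold of immunoprecipitate over input and a −log10 p, capped at 400, on hg19; the score column, as deposited, is a display value and was not used. Per the file headers the values are input-normalized; the merged list of each day, per its name, keeps 4-fold peaks reproducible over 3 libraries. cutadapt, STAR and SAMtools are named in the submitters' processing notes; the peak caller is not given in the sources used here. Counting took every peak that overlapped a gene's window by at least 1 nt on its strand. limma 3.58.1 (R 4.3.3, variance trend) was fitted to log2((peaks + 0.5) / (library's peaks + 1) × 10000) over 2068 features with at least 10 passing peaks: peaks of all libraries joined within 20 kb, plus the gene windows. Benjamini-Hochberg adjustment ran over all features. Tables were made in Python 3.11.15. Ratios have exact 95% intervals, for counting error only, with each peak or cluster taken as independent. On simulated data, limma between day 8 and day 0 recovered 15.8% of 4-fold and 58.7% of 8-fold changes.

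All 7 genes are named, with up to 5 regions each that passed in 3 of 3 libraries of a day, by merged fold, and the 3 most similar loci. The genes, lists and rules were chosen with earlier results of these data known. The main fit did not pair libraries by replicate number. After each day's mean was taken out, same-numbered libraries of different days correlated at −0.148 to 0.311, over 0.1 in 3 of 9 pairs. Libraries with different numbers correlated at −0.439 to 0.404. These values cannot tell whether the numbers mark pairs. Exon positions, sequences, and other sarcomere genes were not analysed here. Alternatives changed the fold, p, join distance, minimum, pseudocount, counted quantity, overlap, variance trend, replicate block and libraries.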

Additional observations from a re-analysis of the deposited data

How the results depend on the processing

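The log2 difference of MYOM1 at day 8 was 3.36 to 6.94 from day 0 and 2.34 to 6.84 from day 4 over the 24 alternatives; since MYOM1 was tested through its day 8 peaks alone, this range gives its size and is no support for the call. Between day 8 and day 0, where 2 genes passed, 7 passed by clusters of any fold and 7 with the scaled pseudocount as well, 4 with a minimum of 3 peaks, 1 with equal numbers of peaks and 1 with the scaled pseudocount on passing peaks. Over all loci, the minimum of 3 peaks called 1462 of 6084 and equal numbers of peaks 206 of 582. With single libraries left out 2 to 3 genes passed, against 548 to 813 of 2068 loci. ACTC1 had no value at 8-fold enrichment or with equal numbers of peaks, since none of its peaks was left or too few were. Between day 4 and day 0, where 1 passed, 2 passed at a −log10 p of 5, by covered nucleotides, with a minimum of 3 peaks, by joined stretches and with the replicate block, 3 with a pseudocount of 2, by all clusters and by all clusters with the scaled pseudocount, and 0 with the scaled pseudocount alone. In each of these settings on passing peaks that called 2 or 3 genes, MYOM1 was 1 of them, with 0 passing peaks in all 6 libraries. Over all loci, 352 of 1100 were called at a −log10 p of 5, 500 of 2082 by covered nucleotides and 395 of 1956 by joined stretches. The minimum of 3 peaks called 1347 of 6084, and the pseudocount of 2 called 893 of 2068 (871 higher). Leaving out single libraries gave 0 to 2, against 238 to 567 of 2068 loci. Between day 8 and day 4, where 1 passed, 3 passed by all clusters and 4 with the scaled pseudocount too. Over the 3 days, where 2 passed, all clusters gave 7, with the scaled pseudocount too 7, and the scaled pseudocount on passing peaks 1. The 1 gene with no overlap of day 8 and day 0 shares became 1 to 2 without single libraries (TPM1 without day 0 replicate 2, MYH6 without day 8 replicate 1, ACTC1 without day 8 replicate 2). The share over all loci was not counted without single libraries. Fewer libraries also separate more easily, so no result about the genes is drawn from these counts. The replicate block added MYH6 between day 8 and day 0 (3 of 4 passed) and ACTC1 between day 4 and day 0 (2 of 4), and left 1 between day 8 and day 4 and 2 over the 3 days. Over all 2068 loci the replicate block called 721, 460, 227 and 788, in that order.

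Some differences that had not passed turned direction. With equal numbers of peaks TPM1 went to −0.58 (day 8 from day 0, limma adjusted p = 0.0646) and to −0.77 (day 4 from day 0, 0.0324), which passed: TPM1, lower, was then the 1 gene called between day 4 and day 0, in place of MYOM1. Over all loci that setting called 124 of 582 between these days, 91 lower and 33 higher, so a lower call was common. Over the 3 days MYOM1 and TPM1 (limma adjusted p = 0.0456) were then called, in place of MYOM1 and ACTC1, against 206 of 582 loci. Between day 8 and day 4 TPM1 was −0.16 at a −log10 p of 5, −0.18 by covered nucleotides, −0.41 by joined stretches, −0.034 with a pseudocount of 2, and −0.36 to 0.25 without single libraries (−0.27 without day 4 replicate 2, −0.36 without day 8 replicate 2). From day 4 to day 8, MYH6 was −0.046 by covered nucleotides, and ACTC1 was −0.23 to 2.04 without single libraries (−0.23 without day 8 replicate 1). The causes were not tested. Between day 8 and day 0, 15.8% of simulated 4-fold changes were recovered over all loci and 29.7% at loci of at least 30 peaks; TNNT2, with 6 peaks, was not tested.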
